A study of Arabidopsis thaliana with 6 samples.

Results

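The mitochondrial iron-sulfur cluster (ISC) assembly genes NFS1, ISU1, ISU2, ISU3, NFU4, NFU5, FH (frataxin), ATM3 and GRXS15 were described in anthers of Arabidopsis thaliana. The 9 genes were named by their place in the pathway and not by any measured value, although earlier results of these data were known. They are 9 of the 33027 loci in the expression tables. All 9 passed the filter on low counts, as did 21267 loci in all. RNA came from whole anthers, with the stage labelled PMC-TC, of wild-type (WT) plants of ecotype Col-0. Both groups grew in modified Hoagland's medium, 10 days on agar and then 18 days in hydroponic culture, with iron. The Fe-deficient group (3 libraries) then stayed 18 days without added NaFe-EDTA, and the control group (3 libraries) stayed 18 days with it. The labels leave unsaid whether separate plants gave the libraries of one group, so every p-value reflects the scatter among these libraries alone, and that scatter may be technical. The question put to the members is whether transcripts of the pathway that builds iron-sulfur clusters differ in anthers when iron is withheld.

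Iron-sulfur clusters are protein cofactors that carry electrons or bind substrates. In mitochondria the cysteine desulfurase NFS1 releases sulfur from cysteine, frataxin modulates this step, and the cluster is formed on an ISU scaffold protein. Chaperones and the glutaredoxin GRXS15 receive the cluster from the scaffold, and proteins such as NFU4 and NFU5 hand clusters on to respiratory and lipoate-making enzymes. ATM3 is an ABC transporter of the inner mitochondrial membrane that links the pathway to cytosolic cluster assembly and to the molybdenum cofactor. Pollen formation in many plants is sensitive to mitochondrial defects.

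Library totals ran from 16818176 to 22710901 estimated counts, and single members had between 222 counts (ISU3 in Fe-deficient 3) and 3015 counts (ISU1 in Fe-deficient 3). The Fe-deficient libraries were not alike. The iron-deficiency regulator gene bHLH100 had 1.08, 0.908 and 213 CPM (read counts relative to the library total after TMM scaling) in the Fe-deficient libraries 1, 2 and 3, against 1.56, 1.36 and 1.42 CPM in the control libraries 1, 2 and 3. The iron store gene FER1 had 409, 577 and 31.8 CPM in the Fe-deficient libraries 1, 2 and 3, against 430, 414 and 382 CPM in the control libraries 1, 2 and 3. Fe-deficient 3 thus stood apart on both, and Fe-deficient 1 and 2 did not show this pattern. In the Fe-deficient libraries 1, 2 and 3 the 14 late pollen markers summed to 9316, 11030 and 3587 CPM. The control libraries 1, 2 and 3 had 961, 3987 and 3741 CPM. VGD1 and PPME1 made up most of each sum, at 5313 and 2660 CPM in Fe-deficient 1. Of the 14, 4 were above all controls in every Fe-deficient library, against 10.0% of all tested loci. The 8 tapetum markers summed to between 1100 and 1488 CPM in the Fe-deficient libraries, against between 2170 and 3679 CPM in the controls. Of the 7 tested tapetum markers, 5 were below all controls in every Fe-deficient library, against 10.3% of all tested loci. The 5 meiosis markers summed to between 29.0 and 32.4 CPM in the Fe-deficient libraries, against between 36.8 and 61.4 CPM in the controls. Of these 5, 4 were below all controls in every Fe-deficient library (10.3% of all tested loci). ZYP1A was not, with a mean of 11.7 CPM in Fe-deficient libraries and 11.3 CPM in control libraries. In the Fe-deficient libraries 1, 2 and 3 the 5 perianth and leaf markers summed to 1602, 1345 and 3294 CPM. The control libraries 1, 2 and 3 had 2115, 1907 and 4473 CPM, and RBCS1A was the largest part of the sum in each library. The 5 pistil markers summed to no more than 9.54 CPM in the Fe-deficient libraries and 18.7 CPM in the controls. Among the markers, DYT1 (tapetum) had 0 counts in Fe-deficient 2, INO (pistil) had 0 in Fe-deficient 1 and ANX2 (late pollen) had 0 in control 1. In bulk anthers, fewer cells of a type and less RNA per cell cannot be told apart, and the part of these markers in the results below was not tested.

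None of the 9 genes passed edgeR's quasi-likelihood test at an adjusted p of 0.05, and neither did any of the 21267 loci tested (0.0% in either direction). Among the members, 5 log2 fold changes (Fe-deficient over control) were positive and 4 negative, with a median of 0.05, against a median of 0.00 over all tested loci. At an unadjusted p under 0.05, 1 of the 9 (ISU1) was higher and 0 were lower, against 7.34% of all tested loci higher and 6.09% lower. Every Fe-deficient library lay above all controls for ISU1 and NFU5 (10.0% of all loci did so) and below all controls for NFS1 (10.3% of all loci). DESeq2, run as an alternative, called 2.01% of its loci higher and 1.27% lower, and none of the 9 members.

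**Figure D1:**
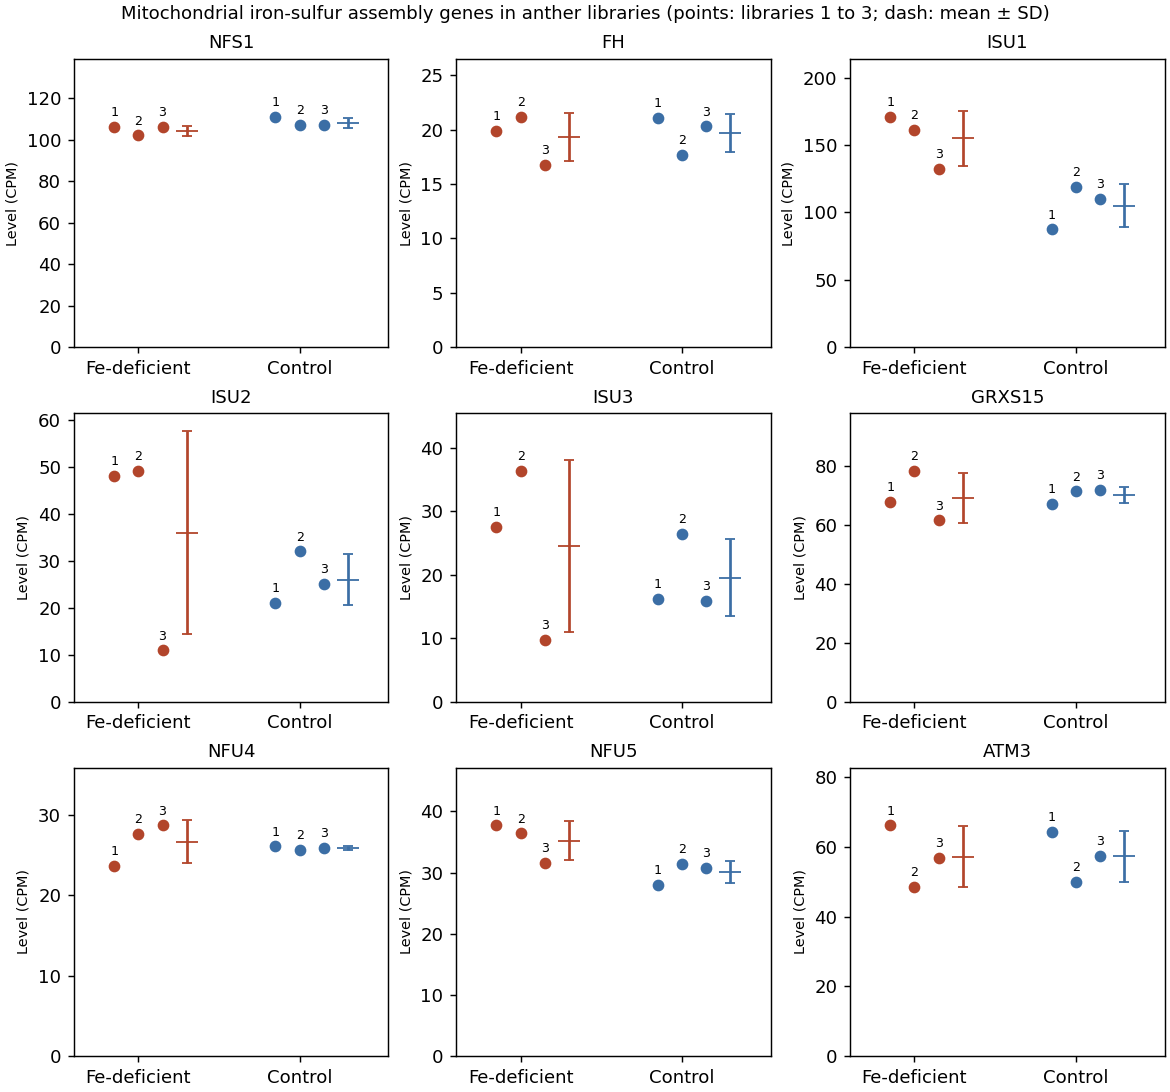
Level of each of the 9 genes in CPM (vertical axis, from 0) in the Fe-deficient libraries (left) and the control libraries (right). Numbered points are libraries 1 to 3, and the dash with bars is the mean ± SD. ISU1 lies above all controls in every Fe-deficient library, and ISU2 and ISU3 are lowest in Fe-deficient 3.

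Sulfur enters through NFS1, whose level in TMM-scaled CPM varied little. NFS1 had 106, 102 and 106 CPM in the Fe-deficient libraries 1, 2 and 3, against 111, 107 and 107 CPM in the control libraries 1, 2 and 3. The groups did not overlap, but the gap was small. NFS1 averaged 104 ± 2.42 CPM in Fe-deficient libraries and 108 ± 2.37 CPM in control libraries (SD, n = 3 each), a log2 change of -0.05 (SE 0.10, edgeR adjusted p = 0.818). The SD of its log2 CPM over the 6 libraries was 0.04, and 22 of the 21267 tested loci, NFS1 included, had a log2 SD no larger. NFS1 therefore lay at the 0.103 percentile of spread on that scale. In TPM, which are not TMM-scaled, NFS1 had 51.7, 52.0 and 65.1 TPM in the Fe-deficient libraries 1, 2 and 3, against 68.1, 64.8 and 69.7 TPM in the control libraries 1, 2 and 3. Its log2 difference was -0.27 on the log2(TPM + 1) scale (limma adjusted p = 0.33), where the median of all tested loci was -0.20, and -0.20 with library totals only (edgeR adjusted p = 0.452), where that median was -0.15. NFS1 (AT5G65720) lies at chr5:26296025-26298091 on the plus strand in TAIR10.1, and the longest of its 3 annotated transcripts has 1 exon.

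Frataxin, FH, had 19.9, 21.2 and 16.8 CPM in the Fe-deficient libraries 1, 2 and 3, against 21.1, 17.7 and 20.3 CPM in the control libraries 1, 2 and 3. The groups overlapped. FH averaged 19.3 ± 2.22 CPM in Fe-deficient libraries and 19.7 ± 1.76 CPM in control libraries (SD, n = 3 each), with a log2 change of -0.03 (SE 0.16, edgeR adjusted p = 0.937). FH (AT4G03240) has 5 exons at chr4:1423238-1424772 on the minus strand in TAIR10.1. It overlaps AT4G03230 on the same strand by 100 bases, and 7.04% of its stretches of 31 bases are shared with that locus. Strand cannot separate the counts of FH and AT4G03230 there. The promoter of FH, which overlaps the gene AT4G03250, held the site II letters TGGGCC at 2 places. These letters, a motif common in promoters of housekeeping and mitochondrial genes, lie within 250 bases before the start of 13.65% of 27443 promoters searched on both strands. The other site II form searched, TGGGCT, was in 0 of the 9 members and in 12.33% of the promoters. Either form was in 1 of the 9 members, FH, and in 19.18% of the promoters.

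The 3 ISU genes encode alternative forms of the scaffold, and they gave the widest spread among the members. ISU1 (AT4G22220, chr4:11759103-11761057, minus strand), ISU2 (AT3G01020, chr3:5104-6149, plus strand) and ISU3 (AT4G04080, chr4:1963291-1964471, plus strand) have 3 exons each in TAIR10.1. Their coding sequences were 75.1% identical between ISU1 and ISU2, 74.1% between ISU1 and ISU3, and 74.7% between ISU2 and ISU3, with no identical run over 29 bases. ISU2 and ISU3 shared no stretch of 31 bases with any other locus, and ISU1 shared 0.3% of its stretches of that length.

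The promoters of the scaffold genes, 250 bases before each gene's start, are shown because ISU2 and ISU3 departed from ISU1 in Fe-deficient 3. They are from RefSeq, TAIR10.1, at chr4:11761058-11761307 (minus strand) for ISU1, chr3:4854-5103 (plus strand) for ISU2 and chr4:1963041-1963290 (plus strand) for ISU3. Capitals mark the G-box CACGTG, letters that bHLH and bZIP factors bind.
ISU1: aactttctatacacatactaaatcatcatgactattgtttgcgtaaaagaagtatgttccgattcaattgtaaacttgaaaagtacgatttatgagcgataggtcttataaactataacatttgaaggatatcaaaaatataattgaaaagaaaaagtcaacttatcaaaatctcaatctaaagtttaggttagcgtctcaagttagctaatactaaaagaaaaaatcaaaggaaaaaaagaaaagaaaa
ISU2: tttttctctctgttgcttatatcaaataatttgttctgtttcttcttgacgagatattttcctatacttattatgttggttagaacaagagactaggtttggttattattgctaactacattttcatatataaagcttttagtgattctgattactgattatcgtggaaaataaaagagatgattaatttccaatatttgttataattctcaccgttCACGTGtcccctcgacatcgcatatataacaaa
ISU3: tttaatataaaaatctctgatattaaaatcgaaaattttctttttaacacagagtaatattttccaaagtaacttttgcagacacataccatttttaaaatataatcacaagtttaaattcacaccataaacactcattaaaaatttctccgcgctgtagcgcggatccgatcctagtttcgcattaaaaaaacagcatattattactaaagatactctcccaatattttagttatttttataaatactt
The G-box of ISU2 was the only one among the 9 members, and 6.49% of the 27443 promoters held one in their 250 bases on either strand. In the same search the window of BTS, an iron-sensing regulator, held 3 G-boxes and that of bHLH100 held 1. The windows of the iron genes IMA1 and FER1 and of the plastid scaffold gene SUFB held none. Any link between the G-box and these transcript levels was not tested.

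ISU1 had 171, 161 and 132 CPM in the Fe-deficient libraries 1, 2 and 3, against 87.4, 119 and 110 CPM in the control libraries 1, 2 and 3. Each Fe-deficient library was above every control library. ISU1 averaged 155 ± 20.3 CPM in Fe-deficient libraries and 105 ± 16.2 CPM in control libraries (SD, n = 3 each). Its log2 fold change was 0.55 (SE 0.17, edgeR unadjusted p = 0.0171, adjusted p = 0.334), so the difference did not pass the test across all loci. Per transcript length, ISU1 had 211, 208 and 204 TPM in the Fe-deficient libraries 1, 2 and 3, against 135, 181 and 181 TPM in the control libraries 1, 2 and 3. The groups did not overlap on that scale either, with 208 ± 3.23 TPM in Fe-deficient libraries and 166 ± 26.5 TPM in control libraries (SD, n = 3 each).

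ISU2 had 48.0, 49.1 and 10.9 CPM in the Fe-deficient libraries 1, 2 and 3, against 21.1, 32.0 and 25.1 CPM in the control libraries 1, 2 and 3. Fe-deficient 1 and 2 were above all controls and Fe-deficient 3 was below all controls. ISU2 averaged 36.0 ± 21.7 CPM in Fe-deficient libraries and 26.0 ± 5.53 CPM in control libraries (SD, n = 3 each), with a log2 change of 0.46 (SE 0.54, edgeR adjusted p = 0.685). Relative to the control mean, its log2 CPM differed by 0.90, 0.93 and -1.23 in Fe-deficient 1, 2 and 3. Without Fe-deficient 3 the log2 change of ISU2 was 0.90 (edgeR adjusted p = 0.0859), and over the 6 fits that each left out 1 library it ran between 0.17 and 0.90.

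ISU3 had 27.5, 36.3 and 9.71 CPM in the Fe-deficient libraries 1, 2 and 3, against 16.2, 26.4 and 15.8 CPM in the control libraries 1, 2 and 3. Fe-deficient 1 and 2 lay above all controls, and Fe-deficient 3 was below them all. ISU3 averaged 24.5 ± 13.5 CPM in Fe-deficient libraries and 19.5 ± 6.04 CPM in control libraries (SD, n = 3 each), with a log2 change of 0.33 (SE 0.48, edgeR adjusted p = 0.751). Without Fe-deficient 3 it was 0.71 (adjusted p = 0.153), and without Fe-deficient 2 it was -0.07.

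At least 2-fold below the control mean in Fe-deficient 3 were 2 of the 9 members, ISU2 (2.39-fold) and ISU3 (2.01-fold, at the edge of the limit), against 5.57% of all tested loci. None was 2-fold above it there (6.69% of all loci). No member was 2-fold from the control mean in Fe-deficient 1 (10.8% of all loci above, 8.56% below) or in Fe-deficient 2 (8.65% above, 7.89% below). Counting error is small beside these differences, since ISU2 had 249 counts and ISU3 had 222 counts in Fe-deficient 3, but a difference of 1 library has no replicate.

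**Figure D2:**
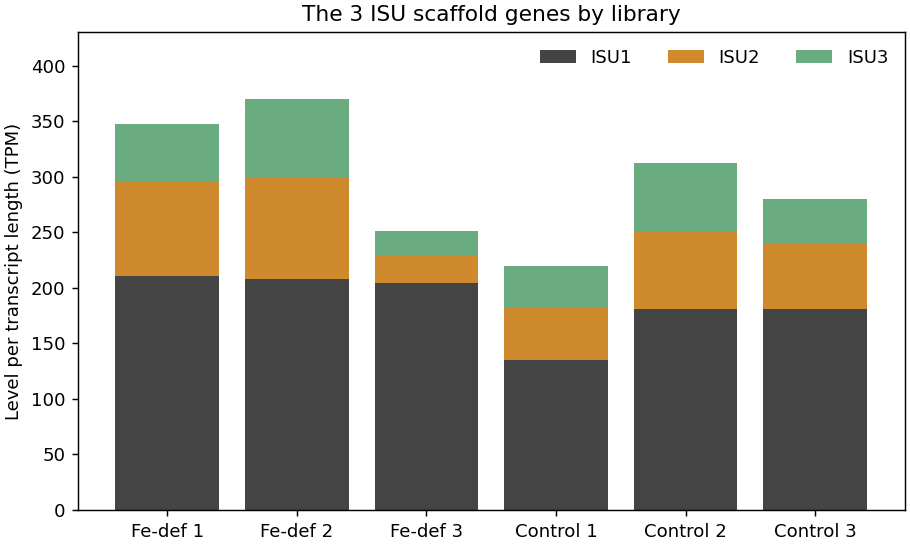
TPM of ISU1, ISU2 and ISU3 stacked (vertical axis, from 0) in each of the 6 libraries, with Fe-deficient libraries left of controls. The ISU2 and ISU3 segments are smallest in Fe-deficient 3, where ISU1 makes up 81.3% of the stack.

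Per length, ISU1 was the largest of the scaffold transcripts in every library. Its share of the summed ISU TPM was 60.7%, 56.2% and 81.3% in the Fe-deficient libraries 1, 2 and 3, against 61.4%, 58.0% and 64.7% in the control libraries 1, 2 and 3. The share averaged 66.1 ± 13.4% in Fe-deficient libraries and 61.4 ± 3.38% in control libraries (SD, n = 3 each; exact two-sided permutation test p = 0.9, where the smallest p possible is 0.1). The share was highest in Fe-deficient 3 and lowest in Fe-deficient 2, and all libraries other than Fe-deficient 3 had 64.7% or less. The summed ISU TPM was 347, 370 and 252 in the Fe-deficient libraries 1, 2 and 3, against 220, 313 and 279 in the control libraries 1, 2 and 3, so the total overlapped between the groups. Without Fe-deficient 3 the mean share was 2.92 points lower in the Fe-deficient libraries.

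GRXS15, a mitochondrial glutaredoxin that binds and transfers clusters, had 67.8, 78.4 and 61.6 CPM in the Fe-deficient libraries 1, 2 and 3, against 67.3, 71.5 and 72.1 CPM in the control libraries 1, 2 and 3. The groups overlapped. It averaged 69.2 ± 8.52 CPM in Fe-deficient libraries and 70.3 ± 2.62 CPM in control libraries (SD, n = 3 each), with a log2 change of -0.02 (SE 0.13, edgeR adjusted p = 0.946). GRXS15 (AT3G15660, chr3:5307694-5309624, minus strand, 6 exons in the longest transcript of TAIR10.1) is the only member with a second transcript above 1.59% of the locus counts. The transcript AT3G15660.1 had 33.8, 60.8 and 45.0 TPM in the Fe-deficient libraries 1, 2 and 3, against 70.5, 80.3 and 70.0 TPM in the control libraries 1, 2 and 3. The transcript AT3G15660.2 had 54.2, 43.9 and 54.8 TPM in the Fe-deficient libraries 1, 2 and 3, against 36.3, 31.5 and 52.4 TPM in the control libraries 1, 2 and 3. In TPM, every Fe-deficient library was below every control for AT3G15660.1, and the groups overlapped for AT3G15660.2. TPM are not TMM-scaled, and the median log2 change of all tested loci was -0.20 on the log2(TPM + 1) scale. On the CPM scale, by the locus CPM and the shares of locus counts, both readings changed. Fe-deficient 2 was then above controls 1 and 3 for AT3G15660.1, and every Fe-deficient library was above every control for AT3G15660.2. AT3G15660.1 took 40.5%, 60.2% and 47.3% of the locus counts in the Fe-deficient libraries 1, 2 and 3, against 68.0%, 73.6% and 59.3% in the control libraries 1, 2 and 3, so by share the groups overlapped. This split was singled out after its values were seen and was not tested. GRXS15 overlaps AT3G15650 on the opposite strand by 286 bases, and 22.05% of its stretches of 31 bases occur in other loci, so its counts are uncertain where strand was not used.

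**Figure D3:**
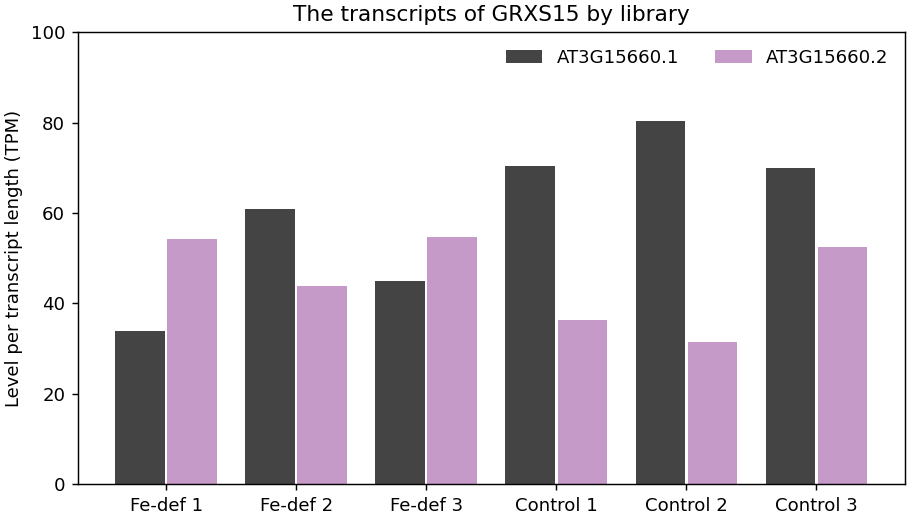
TPM of the GRXS15 transcripts (vertical axis, from 0) in each library, Fe-deficient libraries left of controls. AT3G15660.1 is above AT3G15660.2 in every control, and in Fe-deficient 2 but not in Fe-deficient 1 and 3.

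NFU4 and NFU5 encode late-acting carriers that deliver clusters to enzymes such as lipoate synthase. NFU4 had 23.7, 27.7 and 28.7 CPM in the Fe-deficient libraries 1, 2 and 3, against 26.1, 25.7 and 25.9 CPM in the control libraries 1, 2 and 3, with a log2 change of 0.05 (SE 0.13, edgeR adjusted p = 0.878). NFU4 overlapped between the groups. NFU5 had 37.7, 36.4 and 31.6 CPM in the Fe-deficient libraries 1, 2 and 3, against 28.0, 31.4 and 30.8 CPM in the control libraries 1, 2 and 3, with a log2 change of 0.23 (SE 0.13, edgeR adjusted p = 0.433). The lowest Fe-deficient value of NFU5 was just above its highest control in CPM, and in TPM the groups overlapped, at 28.9, 29.2 and 30.4 TPM in the Fe-deficient libraries 1, 2 and 3, against 26.9, 29.9 and 31.4 TPM in the control libraries 1, 2 and 3. Neither difference passed the test. NFU4 (AT3G20970, chr3:7348157-7350341, plus strand) and NFU5 (AT1G51390, chr1:19050298-19052094, plus strand) have 6 exons each in their longest transcript of TAIR10.1, and their coding sequences were 81.5% identical. NFU5 overlaps other loci on the opposite strand, and 19.64% of its stretches of 31 bases are shared with them. The NFU4 share of summed NFU TPM averaged 45.3 ± 4.57% in Fe-deficient libraries and 48.4 ± 1.74% in control libraries (SD, n = 3 each; exact two-sided permutation test p = 0.4, smallest possible 0.1). The difference of -3.16 points was -0.86 points without Fe-deficient 1, -5.43 points without Fe-deficient 3 and -2.17 points without control 1.

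ATM3, the exporter, had 66.2, 48.6 and 56.8 CPM in the Fe-deficient libraries 1, 2 and 3, against 64.4, 49.9 and 57.4 CPM in the control libraries 1, 2 and 3. The ranges of the groups nearly coincided. ATM3 averaged 57.2 ± 8.8 CPM in Fe-deficient libraries and 57.3 ± 7.25 CPM in control libraries (SD, n = 3 each), with a log2 change of -0.00 (SE 0.16, edgeR adjusted p = 0.995). ATM3 (AT5G58270, named ABCB25 in RefSeq) lies at chr5:23561890-23567244 on the plus strand in TAIR10.1 and has 18 exons. It overlaps AT5G58260 on the opposite strand by 112 bases, and 3.11% of its stretches of 31 bases are shared with that locus.

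Per transcript length, the order of the members in the controls ran ISU1 (166 ± 26.5 TPM), GRXS15 (114 ± 7.99 TPM), NFS1 (67.5 ± 2.51 TPM), ISU2 (58.7 ± 11.7 TPM), ISU3 (46.3 ± 13.1 TPM), FH (34.0 ± 3.73 TPM), NFU5 (29.4 ± 2.31 TPM), NFU4 (27.6 ± 1.1 TPM) and ATM3 (26.6 ± 3.59 TPM; SD, n = 3 each). The control ranges of NFS1 and ISU2, ISU2 and ISU3, FH and NFU5, NFU5 and NFU4, and NFU4 and ATM3 overlapped. Within each control library ISU2 was above ISU3, while the order of the other overlapping neighbours varied between libraries. In the Fe-deficient libraries ISU1 (208 ± 3.23 TPM) and GRXS15 (97.5 ± 8.56 TPM) had the highest means, followed by ISU2 (66.8 ± 36.9 TPM), NFS1 (56.3 ± 7.66 TPM) and ISU3 (48.6 ± 24.3 TPM; SD, n = 3 each). ISU2 thus had a higher mean than NFS1 there, with 85.0, 91.0 and 24.2 TPM in the Fe-deficient libraries 1, 2 and 3. Within libraries, ISU2 was above NFS1 in Fe-deficient 1 and 2 and below it in Fe-deficient 3. GRXS15 was above ISU2 in each of them, at 88.0, 105 and 99.8 TPM, although the ranges overlapped. TPM are not scaled by TMM, and the median log2 change of all tested loci was -0.20 on the log2(TPM + 1) scale, so levels in TPM are comparable between groups only relative to that shift.

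The spread of each gene over the 6 libraries was set beside that of all loci. The SD of log2 CPM was 0.04 for NFS1, 0.10 for NFU4, 0.12 for GRXS15, 0.14 for FH, 0.16 for NFU5, 0.18 for ATM3, 0.36 for ISU1, 0.69 for ISU3 and 0.82 for ISU2. The median was 0.16 over the members and 0.34 over all tested loci. ISU2 lay at the 85.4 percentile and ISU3 at the 80.7 percentile of spread. The members thus ran from the low end to well above the median, and none was at the high end.

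**Figure D4:**
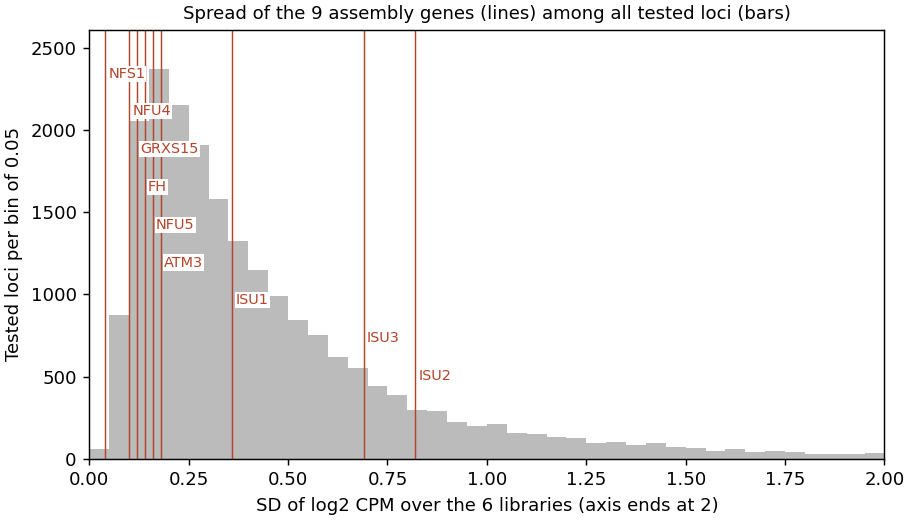
Number of tested loci (bars, vertical axis) by the SD of log2 CPM over the 6 libraries (horizontal axis, to 2), with a line for each of the 9 genes. NFS1 lies at the low end at 0.04, and ISU3 and ISU2 lie to the right at 0.69 and 0.82.

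The loci outside the pathway whose pattern over the 6 libraries was most like a member's were found by the root mean square difference of centred log2 CPM. They were BAM7 for NFS1 (0.014), LACS7 for ISU1 (0.0557), AT1G11740 for ISU2 (0.0937), AT3G58250 for ISU3 (0.0476), EMB2804 for NFU4 (0.0246), SLOMO for NFU5 (0.0233), MSR2 for FH (0.0381), AT1G75990 for ATM3 (0.0257) and FDM5 for GRXS15 (0.0245). The partner of ISU2, AT1G11740, had 16.6, 18.8 and 4.16 CPM in the Fe-deficient libraries 1, 2 and 3, against 7.14, 11.2 and 10.2 CPM in the control libraries 1, 2 and 3, which is high in Fe-deficient 1 and 2 and low in Fe-deficient 3 as ISU2 was.

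Of 15 further genes of the mitochondrial pathway, 14 were tested, and 0 passed the test in either direction. Of the 14, 5 log2 fold changes were positive and 9 negative, with a median of -0.02. IBA57.1, a late assembly factor, had 155, 141 and 47.6 CPM in the Fe-deficient libraries 1, 2 and 3, against 41.8, 77.5 and 79.5 CPM in the control libraries 1, 2 and 3 (log2 fold change 0.79, SE 0.48, edgeR adjusted p = 0.465). It was high in Fe-deficient 1 and 2 and not in Fe-deficient 3. ISCA1a, an A-type carrier, had a log2 change of 0.33 (SE 0.15, edgeR adjusted p = 0.382). MGE2, a nucleotide exchange factor of the chaperone, had -0.37 (SE 0.19, edgeR adjusted p = 0.411), and the electron donor MFDX1 had -0.35 (SE 0.20, edgeR adjusted p = 0.447). The chaperone HSCA1 had 164, 151 and 291 CPM in the Fe-deficient libraries 1, 2 and 3, against 224, 173 and 178 CPM in the control libraries 1, 2 and 3. ISCA1b had 0 counts in all 6 libraries and was not tested. HSCA1 is named after its values were seen, as are ACO3, SDH2-1, SDH2-2 and SUFB below.

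Of 17 genes listed for iron-sulfur proteins of mitochondria and for aconitases, the recipients of clusters, 16 were tested and 0 passed. Of these, 14 log2 fold changes were positive, with a median of 0.26, against 0.00 over all tested loci. At an unadjusted edgeR p under 0.05, 0 were higher and 1, BIO2, was lower, against 7.34% of all tested loci higher and 6.09% lower. By library, the median log2 difference of the 16 from the control mean was 0.52, 0.35 and -0.03 in Fe-deficient 1, 2 and 3, so Fe-deficient 1 and 2 were high and Fe-deficient 3 was at the control level. Fe-deficient 1 and 2 are the libraries in which late pollen markers were highest, and their part in this was not tested. ACO1, an aconitase, had 585, 485 and 447 CPM in the Fe-deficient libraries 1, 2 and 3, against 365, 372 and 418 CPM in the control libraries 1, 2 and 3 (log2 fold change 0.39, SE 0.17, edgeR adjusted p = 0.376). UCR1-1, the Rieske subunit of complex III, had 0.49 (SE 0.20, edgeR adjusted p = 0.372), and TYKY1, a complex I subunit, had 0.27 (SE 0.15, edgeR adjusted p = 0.424). BIO2, the biotin synthase that uses an iron-sulfur cluster, had 52.3, 45.8 and 50.4 CPM in the Fe-deficient libraries 1, 2 and 3, against 84.2, 61.0 and 60.6 CPM in the control libraries 1, 2 and 3. Every Fe-deficient library was below every control (log2 fold change -0.47, SE 0.17, edgeR adjusted p = 0.346), as for 10.3% of all tested loci. In Fe-deficient 3, ACO3 stood 2.25-fold below the control mean, at 662, 543 and 218 CPM in the Fe-deficient libraries 1, 2 and 3, against 505, 453 and 516 CPM in the control libraries 1, 2 and 3. SDH2-1 and SDH2-2, the iron-sulfur subunits of succinate dehydrogenase, were 1.82-fold and 1.66-fold below it there.

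**Figure D5:**
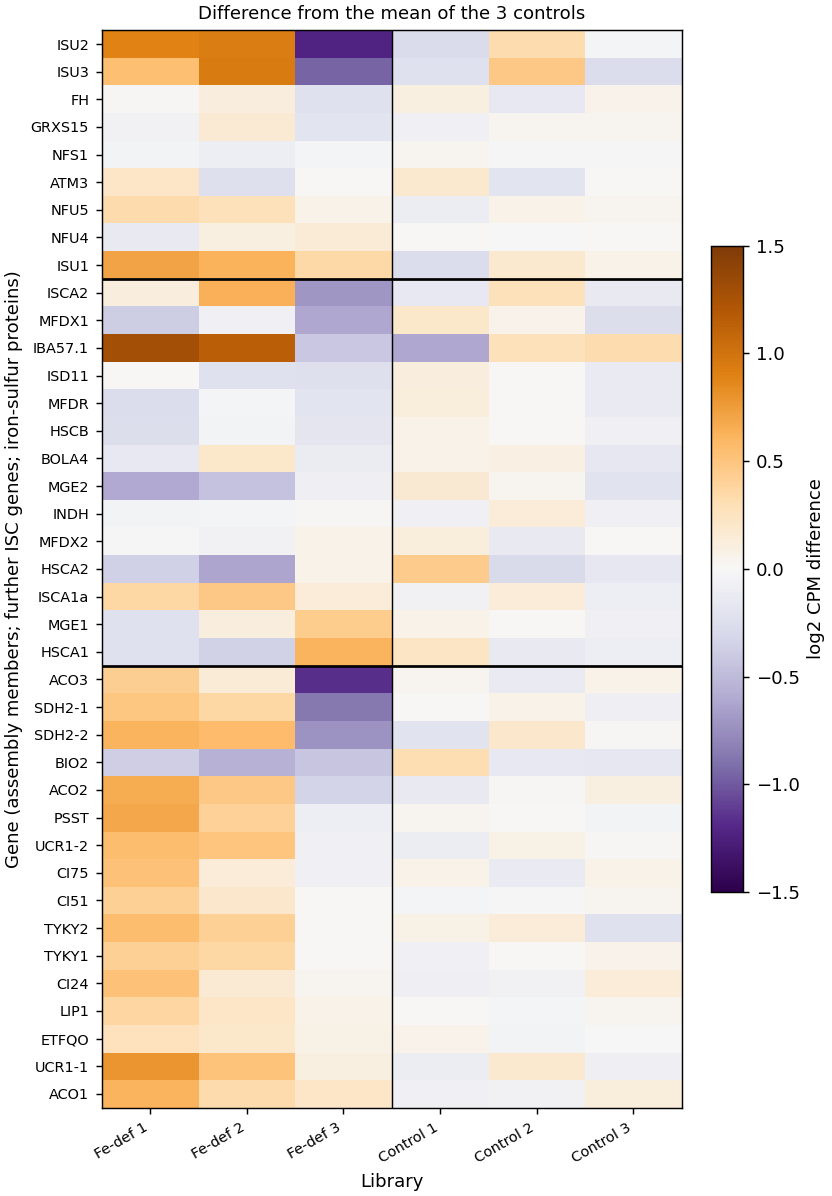
Difference of log2 CPM from the mean of the 3 controls (colour scale, -1.5 to 1.5, values beyond it at the end colours) for the members, the further ISC genes and the iron-sulfur proteins, one row per tested gene and one column per library, Fe-deficient libraries on the left. Rows are sorted within each block by Fe-deficient 3, so ISU2, ISU3 and ACO3 stand near the top of their blocks, with negative values in Fe-deficient 3.

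The 9 genes of cytosolic assembly, a pathway that depends on ATM3, gave 5 positive and 4 negative log2 fold changes with a median of 0.02, and 0 passed the test. The lowest unadjusted p was that of TAH18, an electron carrier of that pathway, with 32.1, 30.1 and 29.0 CPM in the Fe-deficient libraries 1, 2 and 3, against 24.9, 25.7 and 24.6 CPM in the control libraries 1, 2 and 3 (log2 fold change 0.28, SE 0.11, edgeR adjusted p = 0.372). Its Fe-deficient libraries lay above all controls, as for 10.0% of all tested loci. GRXS17, MET18 and CIA1 had log2 fold changes of -0.17, -0.17 and -0.18, with edgeR adjusted p of 0.519, 0.526 and 0.526. Of the 7 genes of the molybdenum cofactor and its enzymes, 5 were positive and 0 passed. XDH1, xanthine dehydrogenase, had 177, 122 and 107 CPM in the Fe-deficient libraries 1, 2 and 3, against 75.2, 89.0 and 92.4 CPM in the control libraries 1, 2 and 3 (log2 fold change 0.66, SE 0.22, edgeR adjusted p = 0.339). CNX2 of the first, mitochondrial step had 0.43 (SE 0.20, edgeR adjusted p = 0.388), ABA3 had 0.17 (edgeR adjusted p = 0.599) and the nitrate reductase NIA1 had 0.50 (SE 0.45, edgeR adjusted p = 0.599).

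The plastid SUF machinery makes clusters independently. Of its 15 genes, 4 log2 fold changes were positive and 11 negative, with a median of -0.14, and 0 passed the test, against a median of 0.05 and 5 positive of 9 among the mitochondrial members. That difference was not tested. SUFE3 had -0.49 (SE 0.21, edgeR adjusted p = 0.375), SUFD -0.29 (SE 0.17, adjusted p = 0.438), SUFE1 -0.21 (SE 0.14, adjusted p = 0.511) and SUFA1 0.20 (SE 0.13, adjusted p = 0.485). SUFB, the scaffold of the plastid system, had 64.2, 68.7 and 4.59 CPM in the Fe-deficient libraries 1, 2 and 3, against 57.6, 57.7 and 70.0 CPM in the control libraries 1, 2 and 3. It was 13.4-fold below the control mean in Fe-deficient 3, against 2.39-fold for ISU2 and 2.01-fold for ISU3, and was near control levels in Fe-deficient 1 and 2.

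Iron reaches mitochondria through the carriers MIT1 and MIT2, and FRO3 reduces iron at the mitochondrion. MIT1 had a log2 change of 0.06 (SE 0.16, edgeR adjusted p = 0.859) and MIT2 of 0.27 (SE 0.14, adjusted p = 0.402). FRO3 had 38.1, 38.6 and 325 CPM in the Fe-deficient libraries 1, 2 and 3, against 26.3, 26.3 and 34.1 CPM in the control libraries 1, 2 and 3 (log2 fold change 2.21, SE 0.89, edgeR adjusted p = 0.371). All Fe-deficient libraries lay above all controls, as for 10.0% of all tested loci, with Fe-deficient 3 far above the others. Without that library the log2 change of FRO3 was 0.41. BTS was likewise highest in Fe-deficient 3, at 101, 79.6 and 860 CPM in the Fe-deficient libraries 1, 2 and 3, against 74.0, 72.0 and 80.3 CPM in the control libraries 1, 2 and 3. IMA1, a gene of an iron-deficiency peptide, had 1.95, 0.511 and 127 CPM in the Fe-deficient libraries 1, 2 and 3, against 0.151, 0 and 0.961 CPM in the control libraries 1, 2 and 3, and was high in the same library.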

How the data were processed

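RNA from Arabidopsis anthers was measured in 3 Fe-deficient and 3 control single-end libraries, grouped by their titles. The submitters' processing notes list Trimmomatic 0.35, Salmon 0.12.0 and TAIR10. Each deposited table holds, per the file headers, Salmon's estimated count, TPM, length and effective length for each transcript. The estimated counts deposited by the authors are not normalized. The TPM values deposited by the authors are scaled for length and depth. The handling of strand is unstated there.

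The 41086 transcripts were collapsed to 33027 loci by adding their estimated counts, which were then rounded. Of these loci 32341 were found in the reference, and all 9 members were. Groups were compared with the quasi-likelihood test of edgeR 4.0.16 (TMM, filterByExpr, group as the single term, Benjamini-Hochberg at 0.05 over 21267 loci), in R 4.3.3. Standard errors were taken as the log2 fold change over the root of F. Alternatives used limma 3.58.1, DESeq2 1.42.0, other scalings, no filter, a length offset, a replicate block and left-out libraries. Log2 CPM used a prior count of 0.5. Totals were between 16818176 and 22710901 estimated counts. None of the 15 library pairs was identical, and chi-square per degree of freedom within groups was 26.5 to 127, so none was merged. The procedure was tested on simulated data.

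Coordinates and promoters are from RefSeq TAIR10.1, since the deposited files hold no coordinates. Motifs were searched with Python 3.11.15 and Biopython 1.88, and figures were drawn with matplotlib 3.10.9. The members and lists were chosen with earlier results of these data known. Named were all members, the up to 4 genes of lowest unadjusted p in each further list, the iron supply and status genes and the marker lists, and per member the locus of most similar pattern.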

Additional observations from a re-analysis of the deposited data

How the results depend on the processing

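No member passed the test under any alternative, and neither did any gene of the further ISC, iron-sulfur protein, cytosolic, molybdenum cofactor or SUF lists. Over all loci the 0 calls became 717 with DESeq2 and 92 with replicates 1 and 2 alone (89 higher, 3 lower). ISU1 stayed positive and NFS1 negative under all alternatives. The median of the members, 0.05, was -0.10 with library totals only, -0.17 with log2(TPM + 1) and -0.18 with log2(TPM + 0.1), where the median of all loci was -0.15, -0.20 and -0.23. Under the TPM scales (pseudocount 1, then 0.1) signs turned for ISU2 (-0.01, -0.02), ISU3 (-0.04 in both), NFU4 (-0.17, -0.18), ABA3 (-0.05 in both), SUFA1 (-0.02 in both) and MIT1 (-0.14, -0.16). With upper quartile factors they turned for NFU4 (-0.03) and MIT1 (-0.01), with library totals only for NFU4 (-0.10) and MIT1 (-0.08), and with RLE factors and DESeq2 for ATM3 (0.01 in both). With replicates 1 and 2 alone they turned for NFU4 (-0.01), FH (0.08), ATM3 (0.00), GRXS15 (0.08), MIT1 (-0.00) and the ISU1 share (-1.25 points). Leaving out 1 library gave ranges of -2.92 to 9.62 points for the ISU1 share, -5.43 to -0.86 points for the NFU4 share, -0.07 to 0.71 for ISU3, -0.01 to 0.13 for NFU4, -0.10 to 0.06 for FH, -0.12 to 0.10 for ATM3, -0.12 to 0.06 for GRXS15, -0.11 to 0.81 for NIA1 and -0.03 to 0.15 for MIT1. The cause of these turns was not tested.

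Whether the replicate numbers pair the libraries cannot be told from these values. Correlations of same-numbered deviations were -0.176, 0.404 and -0.13, and not every library correlated best with its own number. With the replicate number as a block, 0 loci were called (lowest adjusted p 0.396), ISU1 was 0.56, ISU2 0.23, ISU3 0.18 and the median of the members 0.04. For the shares, a block by number cannot move the mean differences of 4.69 (ISU1) and -3.16 points (NFU4), and the exact sign-flip p was 1.0 and 0.75. Depth limits the members little, since each had at least 222 counts in every library, but 3 libraries a group cannot give an exact permutation p under 0.1.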
